A study of Mus musculus with 6 samples.

Results

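The mediobasal hypothalamus holds the arcuate nucleus (ARC), which lies beside the third ventricle, and above it the ventromedial nucleus (VMH). Neurons of the nuclei share an origin but keep different transcription factors, and these factors are used as markers of where a piece of tissue came from. The 10 factors followed here were chosen by name, as rows of the deposited table whose Ensembl identifier belongs to *Nr5a1* or *Fezf1*, factors of the VMH, or to *Nkx2-1*, *Tbx3*, *Isl1*, *Prdm12*, *Six6*, *Hmx2*, *Hmx3* or *Dlx1*, factors of the ARC and its surroundings. All 10 were found among the 22322 genes of the table. The question was what the dissected tissue held in each library, and whether the factors differed between the diets.

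Male mice were 4 weeks old when they were placed on normal-chow diet (NCD, 16.5% fat) or high-fat diet (HFD, 60% fat), and the diet lasted 16 weeks. The methods name C57BL/6J as the wild-type strain of the study. The position of the Kiss1 neurons was shown in a cross of Kiss1-Cre and R26R-EYFP mice, and whether the sequenced mice carried these alleles is not stated. The ARC was cut from frozen brain sections with a laser, and each group had 3 RNA-seq libraries, NCD1 to NCD3 and HFD1 to HFD3. Neither the labels nor the methods say how many mice went into a library, so p-values measure only the spread between these libraries. Counts over all genes added up to 15925648, 9937632 and 6882449 for NCD1 to NCD3, and to 8024664, 10479778 and 5171381 for HFD1 to HFD3. Levels of a gene between libraries are given as normalized CPM, which is the share of the library's counts in CPM, scaled with the TMM factors of edgeR. Levels of different genes are compared as FPKM, the authors' value per kilobase of transcript.

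*Nr5a1* encodes the nuclear receptor SF-1, which VMH neurons need to form and which few other brain cells express. *Fezf1* encodes a zinc finger factor of the same nucleus. *Nkx2-1* encodes a homeodomain factor that sets up the ventral hypothalamus as a whole, ARC and VMH included. *Isl1*, of the LIM homeodomain class, *Prdm12*, a zinc finger factor, and *Tbx3*, of the T-box class, act in Pomc neurons, and *Tbx3* is also made by tanycytes, the glia that line the ventricle floor. *Hmx2* and *Hmx3* are homeodomain genes needed for *Ghrh* expression, and *Dlx1* belongs to a homeodomain family of GABA neurons. *Six6* encodes a homeodomain factor of the ARC, the suprachiasmatic nucleus and the pituitary.

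The most abundant ARC factor was *Isl1* and the most abundant VMH factor was *Fezf1*, and the start regions of these genes are shown so that the members the levels turn on can be seen. Each sequence runs from 250 bases before to 50 bases after the start of the gene in RefSeq (GRCm38.p6), at chr6:23248215-23248514 for *Fezf1* and chr13:116309639-116309938 for *Isl1*, on the minus strand for both. Capitals mark CCAAT or its reverse complement ATTGG.
Fezf1: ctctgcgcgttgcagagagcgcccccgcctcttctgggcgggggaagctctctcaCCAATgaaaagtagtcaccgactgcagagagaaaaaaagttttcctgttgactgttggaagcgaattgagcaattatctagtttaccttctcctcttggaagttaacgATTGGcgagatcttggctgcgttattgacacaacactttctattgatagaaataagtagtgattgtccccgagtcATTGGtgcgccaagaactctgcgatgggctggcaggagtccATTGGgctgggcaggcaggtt
Isl1: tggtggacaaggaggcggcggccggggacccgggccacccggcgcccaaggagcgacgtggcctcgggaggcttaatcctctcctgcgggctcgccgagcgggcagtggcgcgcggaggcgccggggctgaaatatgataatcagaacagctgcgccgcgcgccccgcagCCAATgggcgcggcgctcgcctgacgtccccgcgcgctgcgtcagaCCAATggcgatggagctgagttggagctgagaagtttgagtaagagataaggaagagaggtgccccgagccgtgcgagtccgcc
The window of *Fezf1* held 4 such matches and that of *Isl1* held 2. The RefSeq table gave 9 windows for 8 of the factors, and none was used for *Nr5a1* and *Tbx3*. Searched on both strands, CCAAT was found in 4 of the 9 windows, at *Fezf1*, *Hmx2*, *Six6* and *Isl1*, and in 37.4% of all 32851 windows of that length. TATAAA was found in 1 member window, at *Hmx2*, against 13.6% of all. CAAGGTCA, the site that SF-1 binds, was found in none of the 9 and in 1.56% of all, TGACGTCA in none and in 1.79%, and TAATTA in none and in 5.29%. These letters are a description of the windows and not a measure of binding.

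The factors fell over a wide range of levels. *Isl1* stood at 30.2 ± 4.74 FPKM and *Fezf1* at 28.0 ± 7.66 FPKM (SD, n = 6 libraries of both diets), and *Isl1* was the higher in 4 of 6 libraries. *Nkx2-1* followed at 16.7 ± 4.17 FPKM, *Dlx1* at 13.8 ± 2.05 FPKM, *Nr5a1* at 10.6 ± 4.23 FPKM and *Six6* at 7.60 ± 1.86 FPKM (SD, n = 6). Each of these overlapped the next in its range, so the order among them was not fixed by every library. *Nkx2-1* was above *Dlx1* in 3 of 6 libraries, and *Dlx1* above *Nr5a1* in 4 of 6. *Tbx3*, at 3.94 ± 1.33 FPKM (SD, n = 6), was lower than *Six6* in 6 of 6 libraries. A gap without overlap separated *Tbx3*, whose lowest value was 2.84 FPKM, from *Hmx3*, whose highest was 2.65 FPKM. *Hmx3* at 1.67 ± 0.675 FPKM, *Prdm12* at 1.41 ± 1.05 FPKM and *Hmx2* at 1.27 ± 0.477 FPKM (SD, n = 6) were the lowest and overlapped one another. *Prdm12* reached 3.01 FPKM in NCD2, where *Tbx3* was at 2.90 FPKM, so the gap did not hold for that factor.

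The reads behind the low factors were few. Summed over the 6 libraries, *Hmx2* had 132 counts, *Hmx3* had 129 and *Prdm12* had 228, against 4039 for *Isl1* and 4089 for *Fezf1*. All 10 had enough counts to be tested, as 14188 genes of the table did. Of the factors, 8 lie over or inside a gene annotated on the opposite strand. The library kit named in the labels does not mark strand, so reads from the strands could not be told apart where exons overlap. *Six6* (chromosome 12, 72939892 to 72944899) shares 192 exonic bases with *4930447C04Rik*, which had 193 to 360 counts per library. *Dlx1* (chromosome 2, 71528113 to 71533981) shares 335 exonic bases with *Dlx1as*, *Prdm12* (chromosome 2, 31640037 to 31655795) shares 200 with *Gm13425*, and *Tbx3* (chromosome 5, 119670669 to 119684724) shares 115 with *Tbx3os1*. *Hmx3* (chromosome 7, 131542867 to 131544925) and *Hmx2* (chromosome 7, 131548773 to 131558014) are neighbours with 3847 bases between them, and both sit inside the annotated span of *Fgfr2* without sharing an exonic base with it. *Isl1* (chromosome 13, 116298281 to 116309689) and *Fezf1* (chromosome 6, 23245044 to 23248362) overlap no other annotated gene. *Nr5a1* (chromosome 2, 38692656 to 38714542) and *Nkx2-1* (chromosome 12, 56531958 to 56536908) overlap antisense genes without sharing exonic bases. Coordinates are those of GENCODE M21 on GRCm38, the assembly also known as mm10.

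Both VMH factors were present in every library, so the tissue cut as ARC also held transcripts of factors that mark the VMH. *Nr5a1* was at 32.2, 50.02 and 18.6 CPM in NCD1, NCD2 and NCD3, and at 31.4, 39.98 and 16.5 CPM in HFD1, HFD2 and HFD3. The lowest library of each diet was the one numbered 3, and the diets overlapped. Counting error did not cover that gap. The exact Clopper-Pearson 95% interval was 15.5 to 22.2 CPM in NCD3 and 13.3 to 20.4 CPM in HFD3, while the lowest bound of the other 4 libraries was 27.7 CPM in HFD1. From the highest library to the lowest, *Nr5a1* changed 3.02-fold. In a bulk sample, fewer cells of a type and less RNA per cell cannot be told apart.

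*Fezf1* followed a like order. It was at 80.4, 71.8 and 49.3 CPM in NCD1 to NCD3, and at 65.4, 93.9 and 44.5 CPM in HFD1 to HFD3. NCD3 and HFD3 were again the lowest of their diets, with 95% intervals of 44.1 to 54.9 CPM and 39.0 to 50.6 CPM, and the lowest bound of the other libraries was 60.0 CPM, in HFD1. NCD3 and HFD3 were also the libraries with the fewest total counts, and the part of depth in this pattern was not tested. *Nr5a1* was highest in NCD2 and *Fezf1* in HFD2, and NCD1 had the most counts.

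**Figure D1:**
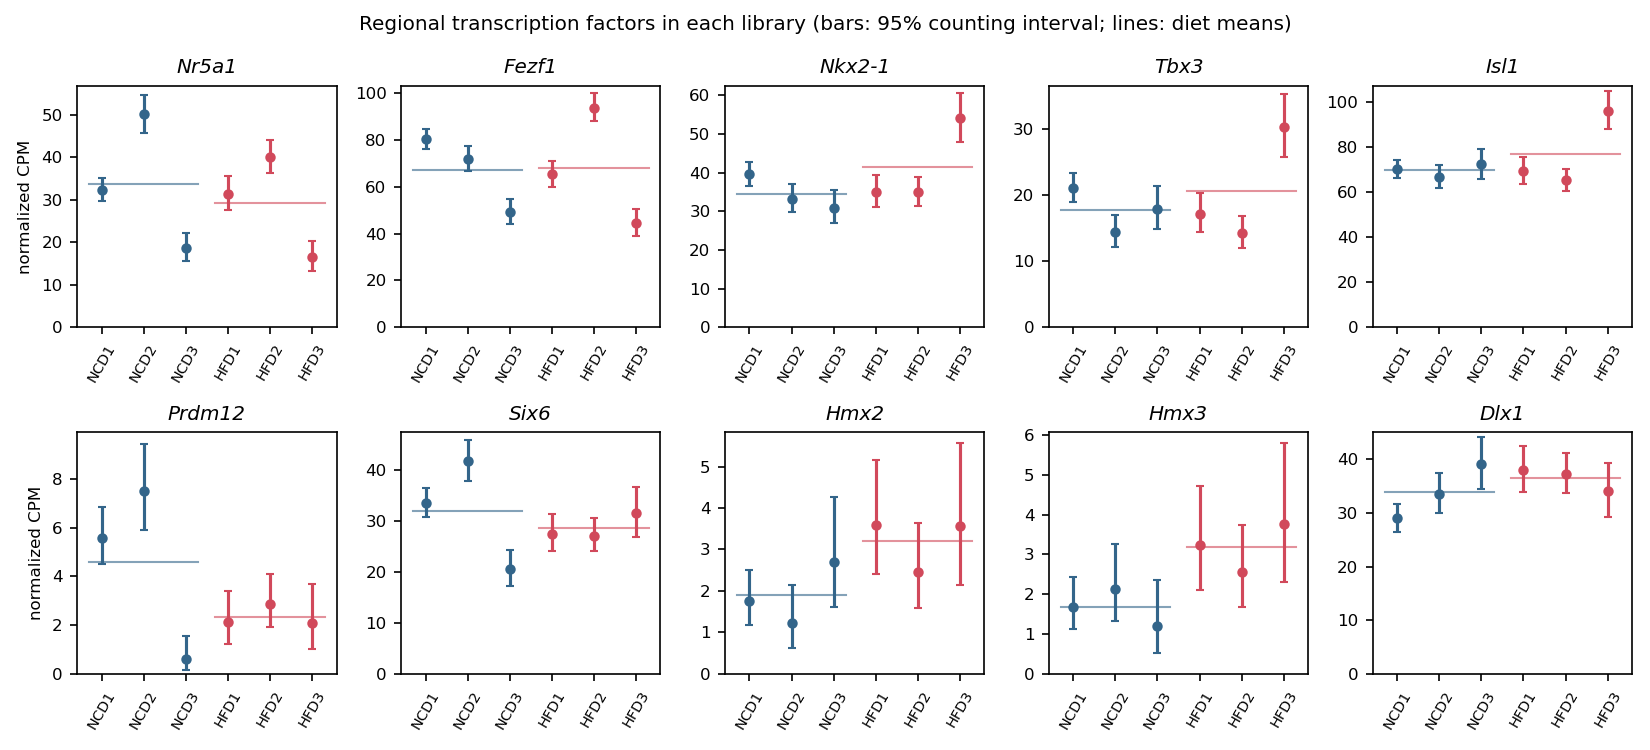
Normalized CPM (vertical axes, from 0) of each factor in the 6 libraries (horizontal axes), NCD in blue and HFD in red. Points are libraries, bars are exact 95% counting intervals and lines are diet means. *Nr5a1* and *Fezf1* are lowest in NCD3 and HFD3, and *Nkx2-1*, *Tbx3* and *Isl1* are highest in HFD3.

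Among the ARC factors, *Isl1* was the steadiest across the libraries apart from *Dlx1*. *Isl1* was at 70.2, 66.8 and 72.3 CPM in NCD1 to NCD3, and at 69.4, 65.3 and 96.2 CPM in HFD1 to HFD3. Only HFD3 stood apart, 1.43-fold above the mean of HFD1 and HFD2, and its 95% interval of 88.1 to 105 CPM lay above the intervals of the other 5 libraries. *Nkx2-1* was at 39.6, 33.2 and 31.0 CPM in NCD1 to NCD3, and at 35.0, 35.0 and 54.1 CPM in HFD1 to HFD3. *Tbx3* was at 21.05, 14.3 and 17.9 CPM in NCD1 to NCD3, and at 17.1, 14.3 and 30.3 CPM in HFD1 to HFD3. For *Nkx2-1* and *Tbx3* too, HFD3 was the highest of the 6 libraries, by 1.55-fold and 1.93-fold over the mean of HFD1 and HFD2. NCD3, which shared the low VMH factors with HFD3, did not share this rise, at 0.85-fold the mean of NCD1 and NCD2 for *Nkx2-1*, 1.01-fold for *Tbx3* and 1.06-fold for *Isl1*.

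*Dlx1* moved least, at 29.0, 33.6 and 39.1 CPM in NCD1 to NCD3, and at 38.0, 37.3 and 34.0 CPM in HFD1 to HFD3. Its highest library was 1.35-fold above its lowest. *Six6* was at 33.6, 41.8 and 20.6 CPM in NCD1 to NCD3, and at 27.6, 27.2 and 31.6 CPM in HFD1 to HFD3. The HFD libraries of *Six6* lay close together, inside the range of the NCD libraries, of which NCD2 was the highest and NCD3 the lowest. *Prdm12* had 93, 74 and 4 counts in NCD1 to NCD3, and 17, 29 and 11 counts in HFD1 to HFD3, which is 5.59, 7.52 and 0.601 CPM and 2.11, 2.86 and 2.07 CPM. NCD1 and NCD2 lay above all HFD libraries, and NCD3 lay below them. With only 4 counts the value of NCD3 has a 95% interval of 0.164 to 1.54 CPM, which does not reach the lowest bound of NCD1, at 4.51 CPM.

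*Hmx2* and *Hmx3* were the factors with the highest estimates for HFD against NCD, at the lowest counts. *Hmx3* had 28, 21 and 8 counts in NCD1 to NCD3, and 26, 26 and 20 counts in HFD1 to HFD3. In normalized CPM these were 1.68, 2.14 and 1.202 in NCD and 3.23, 2.56 and 3.76 in HFD, and every HFD library lay above every NCD library. *Hmx2* had 29, 12 and 18 counts in NCD and 29, 25 and 19 counts in HFD, or 1.74, 1.22 and 2.71 CPM against 3.60, 2.46 and 3.57 CPM, with NCD3 above HFD2. Single libraries of these genes have wide counting intervals, from 1.32 to 3.26 CPM for *Hmx3* in NCD2 and from 1.67 to 3.75 CPM in HFD2.

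The VMH and ARC factors were also set against each other within each library. Of all counts on the 10 factors, *Nr5a1* and *Fezf1* made up 35.8% in NCD1 (exact Clopper-Pearson 95% interval 34.5 to 37.1%), 37.8% in NCD2 (36.1 to 39.5%) and 26.8% in NCD3 (24.7 to 29.0%). They made up 33.1% in HFD1 (31.2 to 35.0%), 41.7% in HFD2 (40.04 to 43.5%) and 19.3% in HFD3 (17.4 to 21.3%). The lowest share was that of HFD3 and the highest that of HFD2, so the HFD group held both ends. The mean log2 CPM of the VMH factors minus that of the 8 ARC factors was 1.90, 2.14 and 1.59 in NCD1 to NCD3, and 1.72, 2.25 and 0.72 in HFD1 to HFD3. Each factor had equal weight in these means, so *Hmx2*, *Hmx3* and *Prdm12*, with the fewest counts, weighed as much as *Isl1*. *Nkx2-1* was placed with the ARC factors, although it is a factor of the VMH as well. The group means were 1.88 ± 0.28 in NCD and 1.56 ± 0.78 in HFD (SD, n = 3). Their difference of -0.32 was larger than the SD of the NCD libraries and smaller than that of the HFD libraries and than the pooled SD of 0.58, and without HFD3 it was 0.11.

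**Figure D2:**
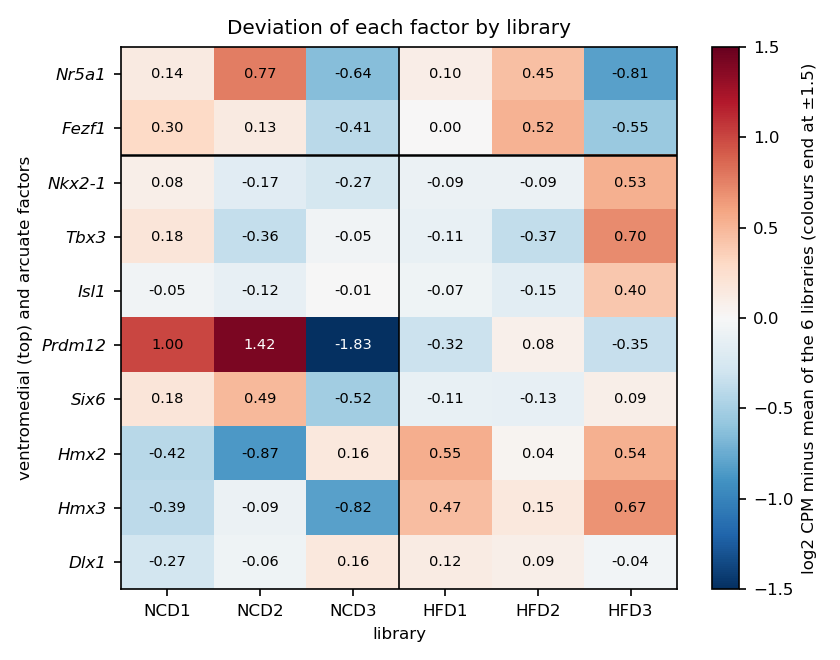
Log2 CPM of each factor (rows) in each library (columns) minus its mean over the 6 libraries, with the values printed. The VMH factors *Nr5a1* and *Fezf1* are below 0 in NCD3 and HFD3, and *Nkx2-1*, *Tbx3* and *Isl1* are above 0.4 in HFD3.

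Across the 6 libraries, 4 relations between factors were computed on log2 CPM, with two-sided exact permutation p-values adjusted over the 4. *Nr5a1* and *Fezf1* rose and fell together, with Pearson's r = 0.858 (exact permutation p = 0.0347, adjusted p = 0.0463), and by rank with Spearman's rho = 0.829 (p = 0.0583 by the same test, adjusted p = 0.0778). Without NCD3 and HFD3, r was 0.145, so this relation rests on those libraries. *Isl1* and *Tbx3* gave r = 0.932 (exact permutation p = 0.00694, adjusted p = 0.0139) and rho = 0.943 (exact permutation p = 0.0167, adjusted p = 0.0667), and without HFD2 and HFD3 r was 0.686. *Nr5a1* and *Isl1* ran in opposite directions, with r = -0.794 (exact permutation p = 0.00556, adjusted p = 0.0139), rho = -0.886 (exact permutation p = 0.0333, adjusted p = 0.0667) and r = -0.736 without NCD3 and HFD3. For the neighbours *Hmx2* and *Hmx3*, r was 0.476 (exact permutation p = 0.35, adjusted p = 0.35) and rho 0.543 (exact permutation p = 0.297, adjusted p = 0.297), and without NCD1 and NCD2 r was 0.653. Each diet has 3 libraries, too few for a correlation of its own. The libraries also shared their depth, and r against the log2 total count was 0.701 for *Nr5a1*, 0.850 for *Fezf1*, -0.704 for *Isl1* and -0.451 for *Tbx3* (n = 6). Of 14187 other genes tested, *Eif3d* and *Scamp4* were the most like *Nr5a1* in log2 CPM over the 6 libraries, with r of 0.9995 and 0.991.

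Between the diets, edgeR's quasi-likelihood test gave none of the 10 factors an adjusted p under 0.05, none had p under 0.05 before adjustment, and DESeq2 called none. Over all 14188 genes tested, 0.0564% had an adjusted p under 0.05, 2.3% had p under 0.05 before adjustment and 1.9% met that p and also differed by over 1.5-fold. The adjusted p of every factor was 0.999. *Hmx3* was the one factor whose diets did not overlap in normalized CPM, where 6.47% of all genes tested did not overlap and 3.24% had every HFD library above every NCD library. Estimates were above 0 for 7 of the 10 factors, against 50.5% of all genes tested. The median log2 fold change of the factors was 0.12, beside 0.00 for all genes tested. Without HFD3 the median of the factors was 0.05, and without both libraries numbered 3 it was -0.04.

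The intervals of the differences were of unequal width. The mean of *Isl1* was 69.8 ± 2.77 CPM for NCD and 77.0 ± 16.8 CPM for HFD (SD, n = 3). Its log2 fold change, HFD against NCD, was estimated at 0.14 (standard error 0.20, 95% interval -0.30 to 0.58). *Dlx1* had means of 33.9 ± 5.05 and 36.4 ± 2.13 CPM, and an estimate of 0.11 (95% interval -0.33 to 0.55). These were the narrowest intervals among the factors, and that of *Dlx1* ran from 0.794-fold to 1.47-fold. *Nkx2-1* had means of 34.6 ± 4.46 and 41.4 ± 11.05 CPM, and an estimate of 0.25 (95% interval -0.25 to 0.75). *Tbx3* had means of 17.8 ± 3.36 and 20.6 ± 8.52 CPM, and an estimate of 0.19 (95% interval -0.45 to 0.84). HFD3 carried the estimates of *Nkx2-1*, *Tbx3* and *Isl1*, which without that library were 0.01, -0.18 and -0.05.

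For the VMH, the mean of *Fezf1* was 67.2 ± 16.1 CPM under NCD and 68.0 ± 24.8 CPM under HFD (SD, n = 3), with an estimate of 0.02 on the log2 scale (95% interval -0.58 to 0.61). *Nr5a1* had means of 33.6 ± 15.7 and 29.3 ± 11.9 CPM, and an estimate of -0.19 (95% interval -0.97 to 0.59). The interval of *Nr5a1* ran from 0.51-fold to 1.501-fold. The estimate of *Nr5a1* also changed sign with single libraries, to 0.20 without NCD2 and 0.08 without HFD3. With the log2 library size added to the model, *Fezf1* was at 0.33 and *Nr5a1* at 0.12. *Six6* had a log2 fold change of -0.16 (95% interval -0.72 to 0.40), and 0.08 without NCD2.

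The low factors had the widest intervals. *Hmx3* was estimated at 0.89 on the log2 scale (standard error 0.45, 95% interval -0.08 to 1.86). *Hmx2* was estimated at 0.78 (standard error 0.46, 95% interval -0.23 to 1.79). Both kept a positive estimate with each library left out in turn, from 0.73 to 1.09 for *Hmx3* and from 0.55 to 1.09 for *Hmx2*, and *Hmx3* was at 0.61 without both libraries numbered 3. *Prdm12* had means of 4.57 ± 3.57 and 2.34 ± 0.443 CPM (SD, n = 3), and an estimate of -0.98 (standard error 0.63, 95% interval -2.34 to 0.38). Its estimate was -1.46 without NCD3, where it passed p under 0.05 before adjustment but not after, and -0.47 without NCD2.

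**Figure D3:**
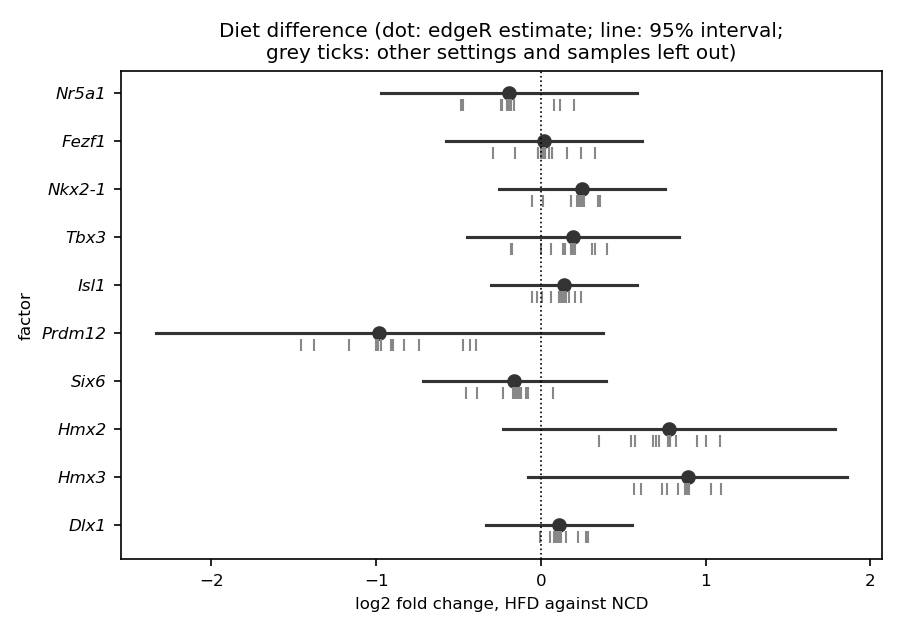
Log2 fold change of HFD against NCD (horizontal axis) for each factor (vertical axis). Dots are estimates of edgeR's quasi-likelihood test, lines their 95% intervals and grey ticks the estimates under other settings or with libraries left out. Every interval includes 0, and those of *Prdm12*, *Hmx2* and *Hmx3* are the widest.

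Other transcription factors of this region, 24 in the list, gave 22 genes tested, 11 higher and 11 lower in HFD, with a median log2 fold change of -0.04 and none with an adjusted p under 0.05. *Neurog3*, a proneural factor of development, had no count in any library, and *Peg3*, *Foxo1*, *Sox2* and *Six3* had the highest mean CPM, a measure that is not per length. *Nr4a2* was the 1 gene with p under 0.05 before adjustment (log2 fold change -1.08). *Dlx2*, the neighbour of *Dlx1* in the genome, had a log2 fold change of -0.44 and *Dlx5*, a relative, of 0.61. They were picked out after their values were seen. *Sox2* was highest in HFD3, at 69.9 CPM against 22.5 to 51.1 CPM in the other libraries, and so was *Six3*, at 59.2 CPM against 22.7 to 46.1 CPM.

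Genes reported to depend on one or another of the factors were listed, 11 in all, and 8 were higher and 3 lower in HFD (median log2 fold change 0.21, none with an adjusted p under 0.05). *Pomc*, which *Isl1*, *Nkx2-1*, *Tbx3* and *Prdm12* act on, was at 559, 1207 and 499 CPM in NCD1 to NCD3, and at 555, 650 and 559 CPM in HFD1 to HFD3. NCD2 was the highest library of *Pomc*, as it was of *Prdm12*, *Six6* and *Nr5a1*. NCD3, where *Prdm12* had 4 counts, had *Pomc* at a level near that of NCD1. *Sst* (log2 fold change 0.19), *Npy* (0.07) and *Th* (0.21) had the highest mean CPM of the list after *Pomc*. *Ghrh*, which *Hmx2* and *Hmx3* act on, and *Agrp* were higher than *Th* in mean FPKM over all libraries. In NCD1, NCD2 and HFD2, *Agrp* was below *Th*. *Ghrh* and *Agrp* had log2 fold changes of 0.44 (95% interval -0.21 to 1.0996) and 0.53 (95% interval -0.24 to 1.30). They were named after their values were seen. Of 14 genes of arcuate neurons, of which *Cartpt*, *Pomc*, *Sst* and *Gal* had the highest mean CPM, 13 had counts in every library. The exception was *Kiss1*, named after its values were seen, which is listed at 0 in NCD1 and HFD1. *Kiss1* shares its locus with *Gm28040*, and the counts of both together were 73, 42 and 57 in NCD and 99, 60 and 79 in HFD. Of the 14, 11 had estimates above 0 for HFD, with a median of 0.20, and none had an adjusted p under 0.05. Before adjustment, *Cartpt* (log2 fold change 0.75), *Gal* (0.70) and *Tac2* (0.60) had p under 0.05. Every HFD library lay above every NCD library for *Cartpt*, at 777 to 1077 against 395 to 672 CPM, and for *Gal*, at 298 to 341 against 143 to 225 CPM.

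Genes of VMH neurons other than the factors did not all follow *Nr5a1*. In the list of 8, *Slc17a6*, which loads glutamate into vesicles, was at 362, 285 and 325 CPM in NCD1 to NCD3, and at 257, 316 and 222 CPM in HFD1 to HFD3. *Adcyap1*, which encodes the peptide PACAP, was at 181, 146 and 170 CPM under NCD and at 170, 211 and 133 CPM under HFD. *Bdnf* was at 30.4, 34.5 and 47.9 CPM under NCD and at 36.0, 46.4 and 24.4 CPM under HFD, and *Nptx2* at 40.6, 43.1 and 34.0 CPM and 41.6, 53.4 and 38.9 CPM. HFD3 was the lowest HFD library for all 4 of these genes and HFD2 the highest, the order of *Nr5a1* and *Fezf1*. NCD3 was the lowest NCD library for *Nptx2* only. Of the 8 genes, 3 were higher and 5 lower in HFD (median log2 fold change -0.16, none with an adjusted p under 0.05).

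Factors and markers of more distant regions were mostly low, apart from the thalamic list. In the list of 10 midbrain and hindbrain genes, *Hoxa3*, *Hoxa5*, *Hoxb2*, *Hoxb3* and *Hoxc4* had no count in any library, and the list summed to at most 0.451 CPM in a library. A count of 0 allows up to 3 counts, which is 0.188 CPM in NCD1 and 0.58 CPM in HFD3. The 8 telencephalic factors summed to 12.7 to 32.9 CPM, most of it *Bcl11b*, which is also made elsewhere. *Eomes* had no count, and *Neurod6*, *Neurod2* and *Tbr1* had at most 3.01 CPM in a library. HFD3 had the highest sum. The 6 mammillary genes, *Lhx5* and *Foxb1* among them, summed to 12.5 to 30.8 CPM, with NCD3 the highest. Sums were higher for the 5 thalamic genes, at 116 to 207 CPM. Among them, *Tcf7l2* was at 51.0 to 148 CPM, *Prox1* at 37.8 to 50.9 CPM and *Lef1* at 8.83 to 15.6 CPM. *Gbx2*, the more restricted marker, was at 0.661 to 5.49 CPM.

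**Figure D4:**
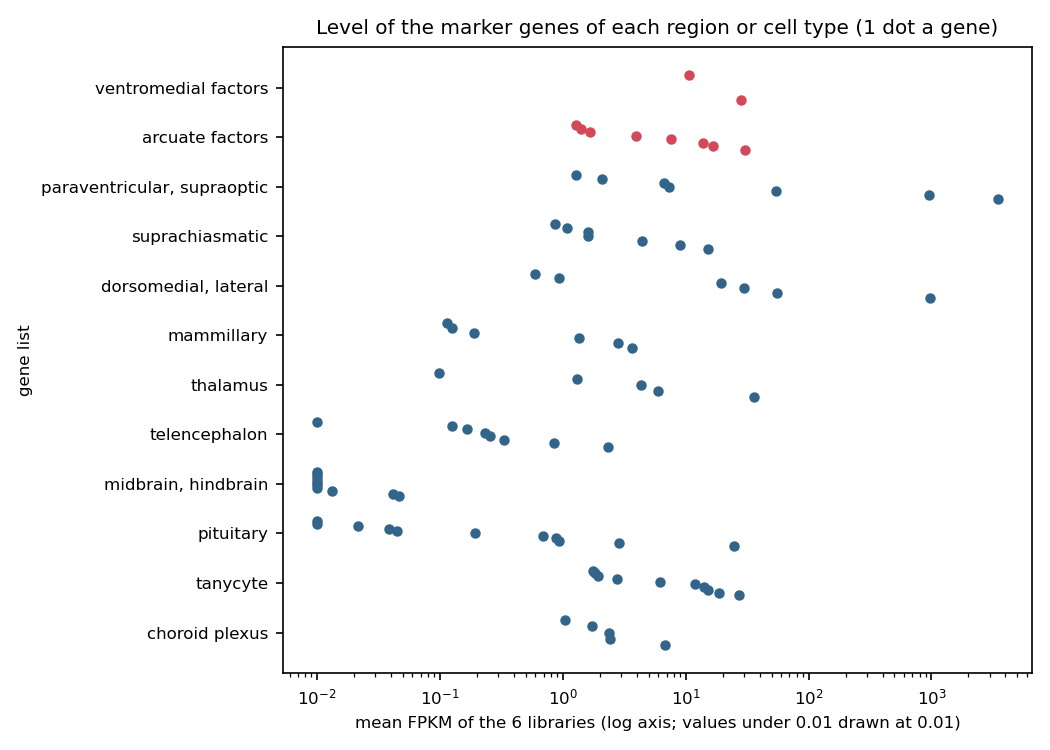
Mean FPKM over the 6 libraries (horizontal log axis, values under 0.01 drawn at 0.01) of every gene in lists of regional and cell type markers (vertical axis, 1 dot a gene), with the 10 factors in red. The factors lie between 1.27 and 30.2 FPKM, and the midbrain and hindbrain genes lie under 0.1 FPKM.

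Cells next to the ARC that also make some of the factors were checked with their own markers. Pituitary cells make *Nr5a1*, *Isl1* and *Six6*, and of 11 pituitary genes *Gh* and *Prl* had no count in any library. *Cga*, the common hormone subunit of the pars tuberalis and the gonadotropes and the most abundant of the list, was at 9.38, 4.17 and 14.9 CPM in NCD1 to NCD3, and at 14.7, 10.6 and 47.9 CPM in HFD1 to HFD3. The whole list summed to 62.2 CPM in HFD3 and to 7.12 to 23.0 CPM in the other libraries, so HFD3, where *Isl1*, *Tbx3* and *Nkx2-1* were highest, was highest here as well. *Nr5a1* was lowest in that library. Of the 4 pituitary genes tested, 3 had estimates above 0 for HFD (median 0.57, none with an adjusted p under 0.05), and *Cga* had p under 0.05 before adjustment (log2 fold change 1.36).

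Tanycytes make *Tbx3*, *Nkx2-1* and *Six6*. All 10 tanycyte genes of the list were tested and had estimates above 0 for HFD (median log2 fold change 0.42, *Crym* alone with p under 0.05 before adjustment, none with an adjusted p under 0.05). The list, in which *Col25a1*, *Vim* and *Gpr50* had the highest mean CPM, summed to 302, 225 and 312 CPM in NCD1 to NCD3, and to 368, 232 and 448 CPM in HFD1 to HFD3. *Vim* was at 94.2 CPM in HFD3 and at 40.2 to 72.4 CPM in the other libraries. HFD3 was thus the highest library of the tanycyte list, of the pituitary list and of *Tbx3*, *Nkx2-1* and *Isl1*, and the part of these cells in the levels of the factors was not tested. None of the 10 tanycyte genes was at 0 in any library.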

How the data were processed

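RNA-seq was performed on ARC tissue from 3 NCD and 3 HFD samples, grouped by their titles. The authors compared cleaned reads with ribosomal sequences using bowtie2, aligned them with HISAT2 (mm10 in the submitters' processing notes) and quantified genes with StringTie and RSEM, and tool versions are not given in the sources used here. The deposited counts are read counts per gene that the authors did not normalize. The deposited FPKM values are scaled by the authors for transcript length and library size, and their group means equalled the means of the columns within 0.001. Further columns hold the authors' comparison of the diets (fold change, p-value, FDR), none of which was used.

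Identifiers were matched to GENCODE M21 (22267 of 22322). Genes passing filterByExpr (14188) were normalized with TMM and tested with edgeR's quasi-likelihood test, with diet as the only term and Benjamini-Hochberg adjustment over all of them. Log2 CPM used a prior count of 2. The libraries ranged from 5171381 to 15925648 counts. Intervals and the floor of 3 counts cover counting error only, since reads are not independent molecules. On simulated counts of 14188 genes for HFD against NCD, 16 of 50 genes changed by a log2 fold of 1, 45 of 50 changed by 2 and 46 of 50 changed by 3 were recovered. The fits used edgeR 4.0.16, DESeq2 1.42.0 and limma 3.58.1 in R 4.3.3, with Python 3.11.15, SciPy 1.17.1, pandas 2.3.3 and matplotlib 3.10.9.

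The factors and the 20 other lists were chosen with earlier results of these data known. Named were all 10 factors, the 4 genes of each list with the highest mean CPM, genes with no count, any gene with an adjusted p under 0.05, genes overlapping a factor and the 3 genes most like *Nr5a1*. Some genes that this rule names are not reported here. Alternatives were RLE factors, library totals, DESeq2's Wald test, other filters, FPKM with limma, the total count (log2) as a term of the model, the replicate number as a block, and each sample left out.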

Additional observations from a re-analysis of the deposited data

How the results depend on the processing

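None of the 10 factors reached an adjusted p under 0.05 under any alternative run, and the median of their log2 fold changes stayed between -0.04 and 0.17. The number of genes called over the whole table was 8, and it was 15 without the filter on low counts, 15 with log2 library size as a covariate, 17 with the replicate number as a block, 19 with DESeq2 and 5 with limma on log2(FPKM + 1). Leaving out samples gave from 1 to 16 genes, and the causes were not tested. Of 147 estimates for single factors under alternatives, 133 kept their direction and 14 did not. With that covariate *Nr5a1* was at 0.12, *Fezf1* at 0.33 and *Prdm12* at -0.43, none with p under 0.05 before adjustment, and *Fezf1* was at -0.016 with the replicate block and at -0.017 with limma. Leaving out samples moved *Nr5a1* from -0.48 to 0.20, *Fezf1* from -0.29 to 0.24, *Nkx2-1* from -0.056 to 0.36, *Tbx3* from -0.18 to 0.40, *Isl1* from -0.053 to 0.24, *Six6* from -0.46 to 0.076 and *Dlx1* from -0.0033 to 0.27. The difference between VMH and ARC factors, HFD minus NCD, ranged from -0.66 to 0.11 when samples were left out. Leaving out both samples numbered 3 was added after the data had been seen. Before adjustment, p was under 0.05 in 3 of the 147, *Prdm12* without NCD3 and without both samples numbered 3, and *Hmx3* with limma on log2(FPKM + 1). *Prdm12*, *Hmx2* and *Hmx3* had no estimate under the filter at a mean of 50 counts. The titles do not say that replicate numbers pair samples, so same-numbered samples were not taken as pairs. Their deviations correlated at -0.012 for number 1, 0.11 for number 2 and 0.37 for number 3. Samples of different number gave from -0.38 to 0.31, so number 3 had the highest value. With the replicate number as a block, no call among the factors changed. *Hmx2*, *Hmx3* and *Prdm12* had the fewest counts, 129 to 228 in all, and for *Prdm12* the NCD libraries differed by more than their counting intervals.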

Other observations

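Of the paraventricular and supraoptic genes, 5 were lower and 2 higher in HFD. *Avp* was at 2379, 4883 and 1959 CPM in NCD1 to NCD3 and at 1047, 943 and 829 CPM in HFD1 to HFD3, the diets without overlap (log2 fold change -1.71, edgeR's quasi-likelihood adjusted p = 0.194). *Oxt* had a log2 fold change of -0.87, *Trh* of 0.51 and *Pou3f2* of -0.29, each with an adjusted p of 0.999 in edgeR, and *Avp*, *Oxt* and *Trh* had p under 0.05 before adjustment. *Avp* was highest in NCD2, as were *Nr5a1*, *Six6* and *Prdm12*.

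In the list of dorsomedial and lateral genes, 5 of 6 were higher in HFD (median 0.29, none with an adjusted p under 0.05). *Pmch*, which marks neurons of the lateral hypothalamus that make melanin-concentrating hormone, was at 1915 CPM in HFD2 and at 271 to 716 CPM in the other libraries, and *Hcrt*, which encodes orexin, was at 73.9 CPM in HFD2 and at 9.26 to 43.1 CPM elsewhere. HFD2 was also the highest library of *Fezf1*. *Nts* and *Ppp1r17*, also of the list, had log2 fold changes of 0.12 and -0.01. Of 7 suprachiasmatic genes, 5 were tested, with 2 higher and 3 lower (median -0.04). *Rorb* was at 71.8 to 94.6 CPM in the 6 libraries.

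Cell type lists gave no gene with an adjusted p under 0.05. The 10 general neuron genes had 5 higher and 5 lower in HFD (median log2 fold change 0.0048). They did not move together in HFD3. *Snap25* (840 CPM), *Map2*, *Slc17a6* and *Gad1* were lowest in that library, while *Syt1* (603 CPM), *Elavl4* and *Slc32a1* were highest there. Medians were -0.13 for 6 astrocyte genes, *Slc1a2* and *Slc1a3* among them, -0.16 for 6 oligodendrocyte genes, *Mbp* among them, 0.03 for 6 microglia genes, 0.02 for 5 endothelial genes, -0.12 for 5 ependymal genes and -0.14 for 5 choroid plexus genes. *Gfap* was at 216, 207 and 83.0 CPM in NCD and at 406, 328 and 197 CPM in HFD (log2 fold change 0.88, adjusted p = 0.999 in edgeR). Before adjustment, *Gfap*, the microglia gene *C1qa* (log2 fold change 0.46) and the endothelial gene *Cldn5* (-0.48) had p under 0.05.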
